A study of Vitis vinifera with 4 samples.

Results

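The events described here are the NAC61 binding events whose summit lay inside the assigned grapevine gene, 0 to 1000 bp downstream of the start of its gene model. NAC61 is a transcription factor (TF) of the NAC family, and its binding to naked genomic DNA was measured by DNA affinity purification sequencing (DAP-seq). Of the 1879 events for which gene coordinates could be used, 277 events in 269 genes met this rule, which was 14.7% of these events (95% Wilson interval 13.2 to 16.4%). The deposited list holds 8558 events in all. The 1879 listed events belong to 1477 genes whose annotation begins with a number, a symbol or a letter from A to D, so every share given below describes that part of the list. Intervals of shares and medians cover counting error only.

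HALO-NAC61 was represented by 2 replicates and the pIX-HALO control, which the methods call GST-HALO, by 2 replicates. In both groups a HALO-tagged protein made by in vitro translation in rabbit reticulocyte lysate was mixed with fragmented genomic DNA of young leaves of Vitis vinifera cv. 'Syrah', pooled from fruiting cuttings. The DNA carried no chromatin, so the events show where this protein can hold DNA and not whether a gene was expressed. The authors called the events on both replicates together against the control, which was sequenced less deeply, and each event carries a single pooled signal. There is therefore no spread between replicates for any value below, and differences between kinds of event are descriptions that were not tested.

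NAC TFs bind DNA as dimers through a conserved N-terminal domain and recognise sites built around a short CGTG core. Members of the family are known in plants for roles in senescence, fruit ripening, secondary wall formation and responses to drought and pathogens. Binding sites are commonly searched for upstream of a gene, in the promoter, but the first stretch of a transcribed gene, with its 5' untranslated region, first exon and first intron, can also hold regulatory sites. Whether an event lay in an exon, an intron or an untranslated region was not analysed here, and the start of the gene model stands in for the transcription start.

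The peak caller GEM attached a short DNA word, a k-mer, to 131 of the 277 events in the first 1 kb, which was 47.3% (95% Wilson interval 41.5 to 53.2%), beside 40.0% of all listed events. The following words are those of events that recur below. They are shown 5' to 3' as GEM wrote them, with the core of each family in capitals. They are words that GEM attached to the events and not the sequence of each event, which was not read. GEM learned its words from these same events, so they are no independent evidence of binding, and the strand relative to the gene is not known.
Acyl-CoA ligase VIT_14s0036g00870: cTTGCGTg
BAH-domain protein VIT_10s0116g00160: gaTTGCGTgtt
ATG18d VIT_14s0060g02380: gaTTGCGTgtt
COP9 signalosome subunit 1 VIT_15s0048g01980: gTTGCGTgtt
RECQI1 VIT_14s0060g01440: gtTTGCGTgtt
Calcineurin B VIT_01s0026g02430: gTTGCGTgtaa
Apyrase VIT_01s0026g02490: aTTGCGTgt
SAUR VIT_01s0146g00180: ggTTGCGTa
bZIP02 VIT_01s0010g00930: TGGCGTGt
Auxin-responsive protein VIT_12s0057g00460: aTGACGTG
CYP78A11 VIT_07s0031g01570: TAGCGTGt
CCR2 VIT_02s0012g01570: aTTGCTTGT

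The first 8 of these words share the core TTGCGT. They differ in the bases around it, except that the BAH-domain protein gene and ATG18d have the same word. The next 3 have another base or pair of bases before the CGT. In the last word, TTGCTTGT, the CGT itself is missing. Each core was searched for in the words on both strands, and a word was counted under the first core it held. TTGCGT was held by 70 of the 131 words, or 53.4% (44.9 to 61.8%). The core of the bZIP02 word, TGGCGTG, was held by 19. The core of the word in the auxin-responsive gene, TGACGTG, was held by 15, and that of the CYP78A11 word, TAGCGTG, by 8. TTGCTTGT was held by 6, and 13 words held none of these cores in full. These were tgcgtgt at 7 events, which is the end of TTGCGTgt, and tgncgtgt at 6. The n is an unfixed base, so tgncgtgt can stand for TGGCGTGt or TGACGTGt. Counts and shares of a core hold only words that spell it out, so they may be too low. How often these cores occur in the genome by chance was not analysed here, because the genome sequence was not used.

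Events whose word ended differently after the TTGCGT core had different median signals. The signal is the count of reads from the HALO-NAC61 libraries that the caller gave to an event. Where a word ends does not show which bases followed it in the genome, whose sequence was not used. The 8 events whose word ran on as TTGCGTgtt had a median signal of 126 reads (range 72.6 to 285), and the 15 events with TTGCGTgt had 139 (49 to 202). The 25 events with TTGCGTg had a median of 91 (63.9 to 338), the 13 with TTGCGTa had 106 (68 to 221), and the 8 whose word ended at TTGCGT had 89.4 (62 to 158). The ranges overlapped throughout. Over all listed events the same 5 endings had medians of 114, 91, 82, 80.7 and 74 reads, a steady decline that the events in the first 1 kb did not follow in full.

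The family of the TTGCTTGT word was the weakest in the first 1 kb. Its 6 events had a median signal of 76.5 reads and reached at most 92, and they included the lignin gene CCR2 and the DELLA protein gene GAI1. Words of this family made up 4.58% (2.12 to 9.63%) of the words in the first 1 kb, 12.7% (8.07 to 19.4%) of those deeper inside genes and 3.16% (1.36 to 7.19%) of those in the 1 kb promoter. TGGCGTG made up 14.5% (9.49 to 21.5%), 10.4% (6.33 to 16.8%) and 6.96% (3.93 to 12%) in the same order. bZIP02 had the highest signal of the TGGCGTG family, with 195 reads. The most frequent single word was TGGCGTGt, at 10 events with signals of 59 to 195 reads. It was followed by ggTTGCGTa, ggTTGCGTg and tgcgtgt at 7 events each.

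Inside the first 1 kb the events gathered towards the start of the gene without sitting on it. The summit lay at a median of 385 bp from the start (quartiles 200 and 616 bp, range 1 to 999 bp), and 175 of 277 events, or 63.2% (57.4 to 68.6%), lay within 500 bp. In consecutive 100-bp windows from the start the counts were 23, 46, 40, 35, 31, 30, 17, 19, 22 and 14. The first window held fewer events than the next 5, and fewer than the 57 events in the last 100 bp upstream of the start. Beyond 1 kb the next pair of windows inside genes held 22 and 15 events, so no step marked the 1000-bp limit.

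**Figure D1:**
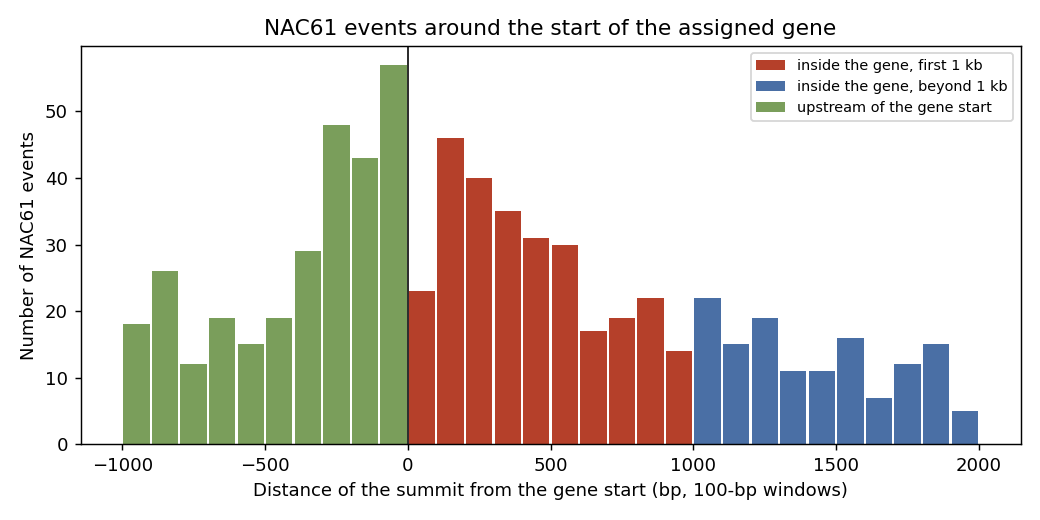
Number of NAC61 events in 100-bp windows of the distance from summit to gene start (x axis, bp, negative upstream), over listed events upstream of or inside the assigned gene. The first window inside the gene holds 23 events, the second 46, and counts fall to 14 at 900 to 1000 bp.

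The events at the limits of the rule had no common level. Just inside the start, at 1 bp, were the ABC transporter gene PDR20, with 50 reads, and the auxin-responsive protein gene VIT_12s0057g00460, with 66 reads. Just outside it, the bZIP03 gene had an event 2 bp upstream with 85.2 reads. At the far limit, BKI1, an inhibitor of the brassinosteroid receptor, had an event at 993 bp with 118 reads and 5'-aminoimidazole ribonucleotide synthetase one at 999 bp with 92 reads. Past it, the cellulose synthase-like genes CSLB04 and CSLG3 had events at 1007 bp with 88 reads and at 1010 bp with 138 reads. The 201-bp interval of the event crossed the gene start at 23 of the 277 events.

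The genes were shorter than those with an event deeper inside, which follows in part from the rule, since a short gene has no room beyond 1 kb. Gene models with an event in the first 1 kb had a median length of 3595 bp over the events, against 8617 bp for events deeper inside genes and 3294.5 bp for events in the 1 kb promoter. They ran from 438 bp, for the cytochrome P450 gene CYP89H3, to 72042 bp. There were 28 genes under 1 kb long and 38 over 10 kb. Relative to the length of the gene, 136 of the 277 events (49.1%) lay in the first 10% of it and 32 (11.6%) in its second part, past the middle. Gene length and signal showed no relation over the events (Spearman's rho of -0.00543 over 277 events, given as a description), and neither did distance and signal (rho of 0.0959).

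The signal of the events in the first 1 kb was on the high side of the list. Its median was 96 reads (95% exact binomial interval 92 to 103, quartiles 79.8 and 128), against 92 (89 to 96.7) for the 419 events deeper inside genes, 85.1 (81 to 90) for the 286 events in the 1 kb promoter and 89.2 (89 to 90.2) for all 8558 deposited events. The interval of the first 1 kb overlapped that of the deeper events and did not overlap that of the promoter events. Signals ranged from 40 to 338 reads in the first 1 kb, while the highest signal among the listed events, 1423 reads, lay deeper inside a gene. The highest signal of the deposited list, 2802 reads, belongs to an event without gene coordinates here, so its position was not analysed. At 174 of the 277 events (62.8%) the signal reached the median of the deposited list, where 50% of deposited events do.

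The authors' caller also gave each event a q-value for its enrichment over the control, and its −log10 is larger for a clearer event. The median −log10 q was 8.39 (7.51 to 9.72) in the first 1 kb, 7.29 (6.55 to 8.09) deeper inside genes, 6.43 (6.04 to 7.31) in the 1 kb promoter and 7.15 (6.99 to 7.29) in the deposited list. A −log10 q of at least 3 was reached by 249 events in the first 1 kb, or 89.9% (85.8 to 92.9%), close to the 87.2% of all deposited events. A −log10 q of at least 5 was reached by 203 events, or 73.3% (67.8 to 78.2%), beside 66.9% of all deposited events, 69.5% of the deeper events and 65.7% of the promoter events.

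Among the 600 events with the highest signal in the deposited list were 34 of the 277 events, or 12.3% (8.92 to 16.7%), where the whole list has 7.01%. The share was 6.68% for the events deeper inside genes and 4.20% (2.42 to 7.19%) for the promoter events. Ranked by −log10 q instead, 27 events in the first 1 kb, or 9.75% (6.79 to 13.8%), were among the top 600 (7.01% of the list), an interval that reached the share of the whole list. Of the 34 strong events, 17 were among the top 600 on both measures, and 13 lay within 250 bp of the start, 12 from 250 to 500 bp, 4 from 500 bp to under 750 bp and 5 at 750 bp or more. They fell in 34 genes on 13 chromosomes and carried a k-mer in 18 cases.

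When the deeper events were divided by depth, a division chosen after the values were seen, the first 1 kb did not stand apart from the next. From 1 to 2 kb, 12% (7.54 to 18.6%) of 133 events were among the 600 highest signals, and from 2 to 5 kb 6.25% (3.32 to 11.5%) of 144, and beyond 5 kb 2.11% (0.721 to 6.03%) of 142. The share with a k-mer was 47.3% (41.5 to 53.2%) in the first 1 kb, 47.4% (39.1 to 55.8%) from 1 to 2 kb, 31.2% (24.2 to 39.2%) from 2 to 5 kb and 18.3% (12.8 to 25.5%) beyond 5 kb. In the 1 kb promoter it was 55.2% (49.5 to 60.9%). The median signal changed little with depth, from 96 reads in the first 1 kb through 94 and 92.3 to 91 beyond 5 kb, so events far inside genes had a similar typical signal but fewer very strong events and fewer words.

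**Figure D2:**
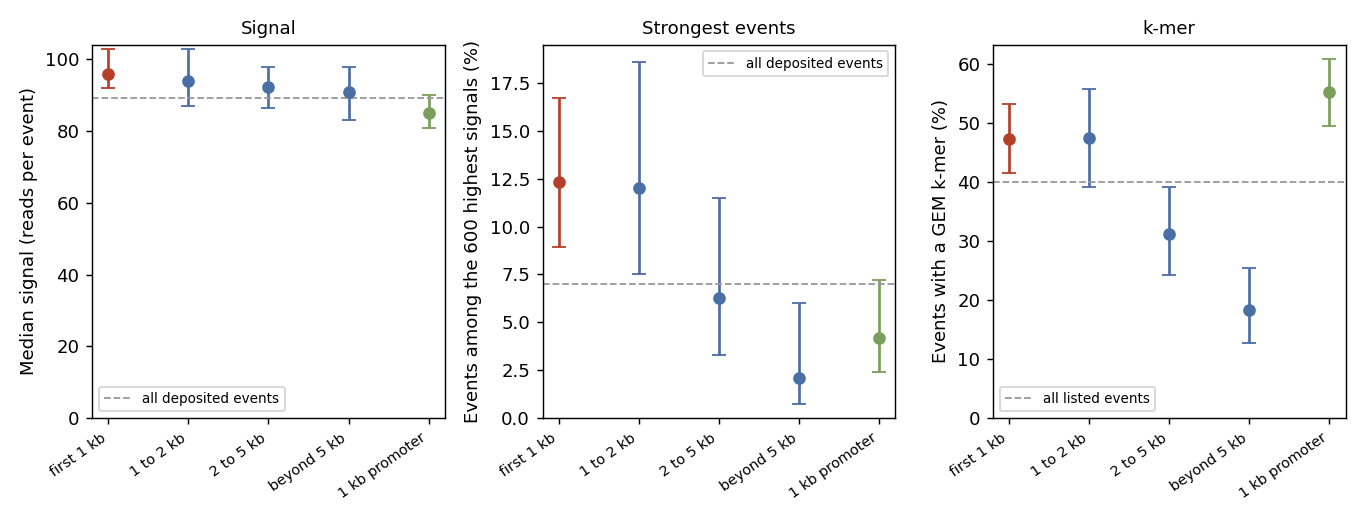
Median signal (left, reads per event), share of events among the 600 highest signals of the deposited list (middle, %) and share of events with a GEM k-mer (right, %) by position, with 95% intervals as bars. The first 1 kb (277 events) and the stretch from 1 to 2 kb (133 events) are alike at 12.3% and 12% and at 47.3% and 47.4%, and both shares are lower beyond 5 kb, at 2.11% and 18.3%.

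Having a word did not go with a stronger event within the first 1 kb. The 131 events with a k-mer had a median signal of 93 reads (87.4 to 102) and the 146 events without one had 100 (94 to 106). Several of the strongest events had none, among them those of the cysteine protease genes. Both strands had similar values, with a median of 96 reads (92 to 102) at the 147 events in genes on the plus strand and 100.5 (91 to 106) at the 130 on the minus strand.

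The strongest event in the first 1 kb was in the acyl-CoA ligase gene VIT_14s0036g00870, whose annotation names enzymes that activate carboxylic acids as CoA esters. The gene lies on chromosome 14 of the PN40024 12X.v2 assembly, from 11117582 to 11119477 on the plus strand, and the summit was at 11118334, 752 bp from the start. Its signal was 338 reads, rank 70 of the deposited list, and its −log10 q was 47.7, rank 86. It was the only listed event of this gene, and it was 1 of the 5 events at 750 bp or more among the 34 with a signal in the top 600.

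The event with the highest −log10 q, 83.2, was in VIT_10s0116g00160, which encodes a BAH-domain protein, a domain found in proteins that bind chromatin. The gene lies on chromosome 10 from 1288585 to 1294918 on the minus strand, with the summit 384 bp inside it and a signal of 285 reads, rank 87. Its rank by −log10 q was 33. The same word, gaTTGCGTgtt, was found at ATG18d (chromosome 14, 1980256 to 1985503, minus strand), a gene of the autophagy machinery, whose event at 800 bp had 252 reads and a −log10 q of 56.9. These were the only events in the first 1 kb with this word.

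Signal and −log10 q went together over the 277 events (Spearman's rho of 0.800, a description of values that share their reads), but not for every gene. bZIP09, a basic leucine zipper TF, and VIT_04s0023g02990, annotated as cell growth defect factor 1, each had 179 reads, rank 368, with −log10 q of 51.6 and 48.4. Cysteine protease CP1 had 262 reads and a −log10 q of only 19.1, rank 909, and the COP9 signalosome subunit 1 gene 257 reads and 18.2, rank 992. Diacylglycerol kinase 1, an enzyme of lipid signalling, went furthest in this direction, with 154.5 reads and a −log10 q of 3.14. Control reads at each event are not analysed here, so the part that the control played in these gaps was not tested.

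The remaining events of the 10 strongest were in a cysteine endopeptidase gene (VIT_17s0000g05500, 246 reads at 180 bp), a small auxin-up RNA gene (SAUR, VIT_01s0146g00180, 221 reads at 12 bp), a chaperonin (202 reads at 450 bp), an apyrase, of enzymes that hydrolyse nucleotides (202 reads at 619 bp), and an AAA-type ATPase (197 reads at 71 bp). None of these 5 genes had a second event in the first 1 kb. At the other end, beta-amyrin synthase, the first enzyme towards a class of triterpenes, had the lowest signal of the 277 events at 40 reads, followed by an ankyrin-repeat protein at 41.

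**Figure D3:**
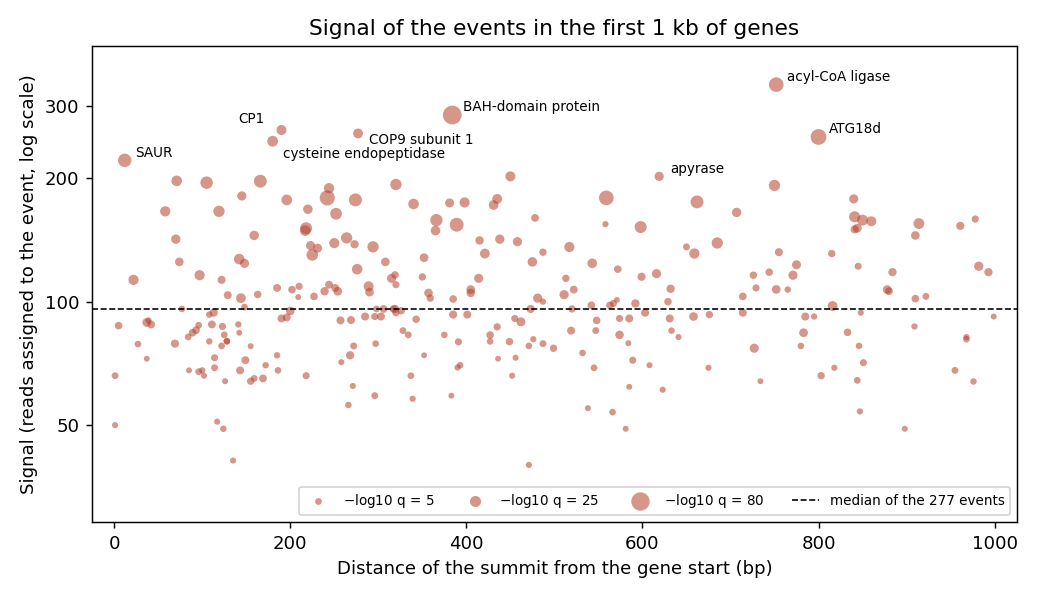
Signal of each of the 277 events in the first 1 kb of genes (y axis, reads, log scale) against the distance of its summit from the gene start (x axis, bp), with point area growing with −log10 q. Strong events occur along the whole stretch, from SAUR with 221 reads at 12 bp to ATG18d with 252 reads at 800 bp. The dashed horizontal line marks the median of 96 reads.

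Along the stretch the median signal was 91 reads (84 to 104) at 0 to 250 bp, 96 (92 to 107) at 250 to 500 bp, 98 (91 to 107) at 500 to 750 bp and 107 (92 to 122) at 750 to 1000 bp. The intervals overlapped. The share with a k-mer was 43.5%, 53.3%, 45.5% and 44.7% in the same windows, with no order.

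The genes were then read by function, using 12 lists of annotations that together hold 107 of the 277 events, in 101 genes. Each list is cut at the letter D of the annotation, so genes of the same kind annotated under later letters are absent from it. The other 170 events, in genes of no list, had a median signal of 94.5 reads. Medians and counts of lists with so few events describe these genes only. Counts of events with a −log10 q of at least 5 stand beside 73.3% of the 277 events and 66.9% of all deposited events, and counts with a k-mer beside 47.3% of the 277. Of all listed events, 14.7% lay in the first 1 kb and 15.2% in the 1 kb promoter.

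The proteases and autophagy list had the highest median of the 12 lists, 135 reads over 8 events. The median was 94 reads over the 29 listed events of these genes at any position and 96 over all events in the first 1 kb. The 8 events were in cysteine and aspartic protease genes and autophagy genes. Other genes annotated as proteases or peptidases lay outside the list. They were a LON-domain protease (177 reads), Cgi67 serine protease (107), dipeptidyl peptidase 8 (103), ClpB (83), carboxypeptidase D (80) and a CAAX protease (69). The rank of the list therefore rests on which proteases it holds. The spread inside the list was wide. Cysteine protease CP1, ATG18d and the cysteine endopeptidase had 262, 252 and 246 reads, and the aspartic protease AP37 had 165 reads. ATG8C, which encodes a ubiquitin-like protein of the autophagosome membrane, had 105 reads at 405 bp, and a cathepsin B gene 102 reads at 385 bp. The aspartic proteases AP14 and AP40 lay far lower, with 66 and 62 reads and −log10 q of 2.85 and 2.38. A −log10 q of at least 5 was reached by 6 of the 8 events.

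Genes of helicases, chromatin proteins and the COP9 signalosome held 18 events in the first 1 kb, in 17 genes, out of 46 listed events, and 1 of the 46 lay in the 1 kb promoter, where the shares over all listed events are 14.7% and 15.2%. The median was 111 reads, against 106 over the 46 events, and 13 of the 18 reached a −log10 q of at least 5. Besides the BAH-domain gene and COP9 subunit 1, the SNF2-domain helicase VIT_10s0116g01490 had 161 reads at 841 bp. RECQI1, of the RecQ helicases that unwind DNA in repair, had 137 reads at 223 bp. The lower events included DEMETER, a DNA glycosylase that removes methylated cytosine in Arabidopsis, with 79 reads and a −log10 q of 4.56. COP9 subunit 6a, of the same complex as subunit 1, had 74 reads, and a further BAH-domain gene, VIT_02s0025g03510, had the lowest signal of the list at 59.

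TF genes held 17 events in 15 genes, with a median of 107 reads against 96.7 over the 99 listed events of this list, and 13 of 17 reached a −log10 q of at least 5. bZIP02 had 195 reads and a −log10 q of 33.0 at 105 bp, in a gene of which the whole model spans 17639932 to 17640581 on chromosome 1. bZIP09 followed with 179 reads, and WHIRLY 1, named after an Arabidopsis single-stranded DNA-binding protein of plastids and nuclei, had 174 reads at 381 bp. Events in the bHLH genes bHLH018, bHLH023, bHLH027, bHLH035 and bHLH041 had between 92 and 118 reads, and a second event of bHLH035 had 63.9 reads, the lowest of the list. The DELLA gene GAI1, whose Arabidopsis relatives repress gibberellin responses, had 73 reads and a −log10 q of 2.82.

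Dehydration and cold genes overlapped with the TF list in 3 genes. Dehydrin 1, a hydrophilic protein made during water deficit, had 116 reads and a −log10 q of 19.6 at 97 bp, on chromosome 3 (gene 3186260 to 3187245, minus strand). DREB32, a TF of the dehydration-responsive element-binding group, had 113 reads and a −log10 q of 20.02 at 22 bp. DREB18, annotated with ABI4 of abscisic acid signalling, had 104 reads at 511 bp, COR413-TM1 had 92 reads at 296 bp, and DREB20 had 72 reads at 149 bp. All 5 reached a −log10 q of at least 5, beside 73.3% of the 277 events, and their median of 104 reads compares with 100.5 over the 18 listed events of these genes.

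Among membrane transport genes, the aquaporins, which let water cross membranes, had 5 events in 4 genes out of 13 listed events. GAMMA-TIP, a tonoplast aquaporin, had 172 reads at 431 bp, TIP1;3 had 136 and 107 reads at 517 and 752 bp, TMP-C had 109 reads and BETA-TIP 85. The ABC transporters had 10 events of 67 listed, with a median of 101 reads. The neighbouring ABCB14-annotated genes VIT_10s0003g02580 and VIT_10s0003g02550 had 178 and 145 reads, at 435 and 159 bp. MRP26, of the ABCC subfamily, had 157 reads, and WBC11, whose Arabidopsis counterpart exports cuticular lipids, had 128 reads. PDR20 was lowest with 50 reads.

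Calcium signalling genes held 13 events in 12 genes, with a median of 96 reads, equal to that of their 63 listed events, and a narrow range of 78 to 150. Calmodulin-7, a calcium sensor, had 150 reads at 841 bp, and the calmodulin-binding transcription activator 6 gene had 125 reads at 308 bp. Calcineurin B, a calcium sensor that partners with protein kinases in plants, had 117 reads at 616 bp, while the related Calcineurin B protein 10 had the lowest signal of the list with 78. The calcium-dependent protein kinases CPK11 and CPK6 had 98 and 91 reads. The event nearest to the start was at 298 bp, where 31.0% of the 277 events lay within 250 bp, and 10 of the 13 reached a −log10 q of at least 5, near the 73.3% of the 277 events.

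The cytokinin list had 7 events of 24 listed, with a median of 96 reads against 100 over the 24. They covered synthesis (adenylate isopentenyltransferase, 124 reads), storage as glucosides (3 cis-zeatin O-glucosyltransferases, 116, 89 and 84 reads), breakdown (cytokinin dehydrogenase 7, 96 reads) and signalling (the phosphotransfer protein AHP2, 145 reads, and the type-A response regulator ARR6, 70 reads). The auxin list had 5 of its 61 listed events in the first 1 kb (14.7% over all listed events) and 12 in the 1 kb promoter (15.2% over all listed events). After SAUR VIT_01s0146g00180 came a second SAUR gene with 110 reads, AIR12 with 106, an auxin efflux carrier with 96 and the auxin-responsive protein VIT_12s0057g00460 with 66, and all 5 reached a −log10 q of at least 5.

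The cell wall polysaccharide list had 6 events with a median of 124 reads, against 88 over its 41 listed events. A pair of genes annotated as CSLA09, of a family that makes mannans, had 189 and 151 reads at 244 and 218 bp, and callose synthase had 152 reads and a −log10 q of 30.0 at 598 bp. Beta-galactosidase and beta-1,4-xylosidase had 70 and 64 reads and −log10 q of 2.60 and 2.27. In the phenylpropanoid and lignin list, 8 of 20 listed events lay in the first 1 kb and 1 in the 1 kb promoter, and 7 of the 8 had a k-mer, but their median was 83 reads and the highest, in the caffeic acid O-methyltransferase gene VIT_12s0059g01770, was 104. CCR2, a cinnamoyl-CoA reductase that commits precursors to lignin, had 92 reads, the dirigent genes DIR26 and DIR20 had 91.5 and 83, and another cinnamoyl-CoA reductase gene had 61.

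The cytochromes P450 had the lowest median of the lists, 81 reads over 9 events, against 87.5 over their 52 listed events, and 7 of the 9 had a k-mer. CYP78A11 had 175 reads and a −log10 q of 36.0 at 662 bp, CYP86A2, of a family that hydroxylates fatty acids for the cuticle, had 155 reads at 914 bp, and CYP89H3 had 130 reads at 225 bp. The other 6 ran from 90 reads at CYP94A1 to 49 at CYP721A1.

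**Figure D4:**
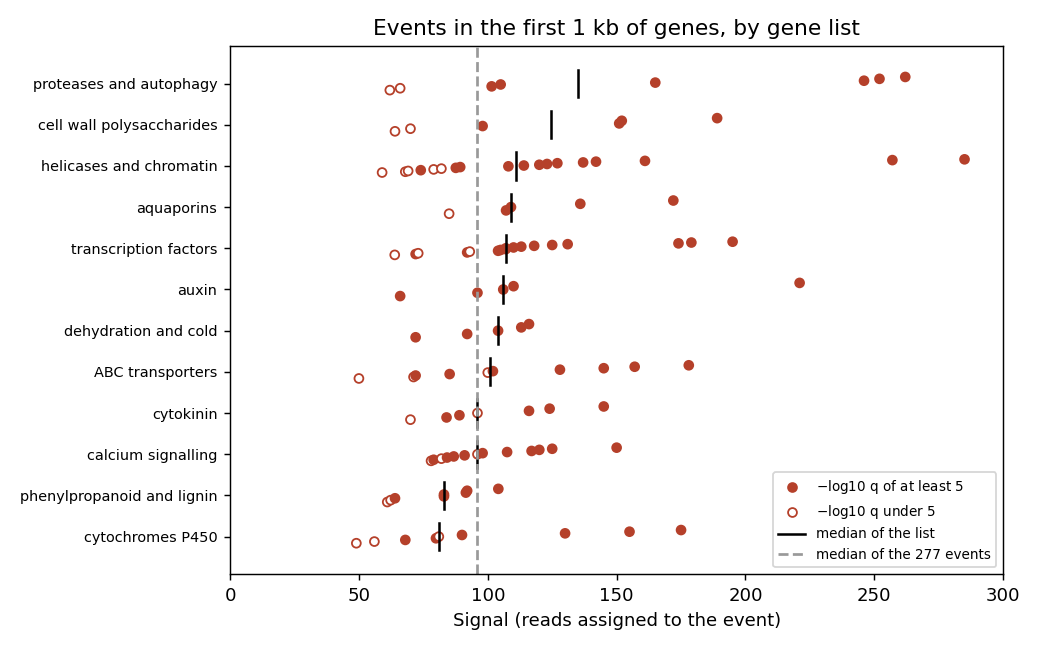
Signal (x axis, reads) of the events in the first 1 kb of genes in each of 12 lists of annotations (y axis), with a bar at the median of the list and a dashed line at 96 reads, the median of the 277 events. Filled points have a −log10 q of at least 5. The proteases and autophagy list, which leaves out some protease genes, reaches the highest median, 135 reads, with points from 62 to 262.

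A single event per gene was the rule. Of the 269 genes, 186 (69.1%) had no other event, 24 also had one deeper inside, 20 (7.43%) also had one in the 1 kb promoter, and none had more than 3 in total. Another event of the deposited list lay within 500 bp of 17 of the 277 events, or 6.14% (3.87 to 9.61%), near the 5.89% of all deposited events, against 10.8% (7.74 to 15.0%) of the promoter events. A signal with a decimal part was found at 14 events with such a neighbour and at 29 without one, 43 of the 277 in all.

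There were 8 genes with 2 events in the first 1 kb, and in all 8 the event nearer the start had the higher signal, although in 2 of them both values were nearly equal. bZIP09 had 179 reads at 242 bp and 107 at 765 bp, with −log10 q of 51.6 and 4.12. The chromosome maintenance gene MAG2 had 142 reads at 70 bp and 82 at 968 bp, and the amino acid transport gene VIT_01s0026g02500 had 164 at 252 bp and 79.2 at 584 bp. bHLH035, TIP1;3 and VIT_12s0059g01770 had the same order, and in the last the summits were 108 bp apart, the closest pair of the set, with 104 and 62.3 reads. The calmodulin gene VIT_14s0006g01400, with 86.8 and 84.2 reads, and dimethyladenosine transferase, with 94 and 93, had nearly equal pairs.

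In the 20 genes bound on both sides of the start, the event inside the gene had the higher signal in 11 and the promoter event in 9. The −log10 q leaned more to the promoter. Where the promoter event had the higher signal, it also had the higher −log10 q. Where the inside event had the higher signal, −log10 q was at times higher upstream. It was 2.53 inside and 5.67 upstream at 5'-aminoimidazole ribonucleotide synthetase, 2.18 and 4.54 at acetylornithine aminotransferase, and 15.01 and 15.51 at Calcineurin B. Diacylglycerol kinase 1 had 154.5 reads 558 bp inside the gene and 265 reads 554 bp upstream, with −log10 q of 3.14 and 43.1 and with different words, gTTGCGTgt inside and aTGACGTGtt upstream. Calcineurin B protein 10 had 78 reads inside and 145 upstream. The order was the other way round at the auxin-independent growth promoter VIT_03s0038g03240, with 131 reads inside and 65.5 upstream, at the aromatic and neutral transporter VIT_05s0062g01140, with 197 and 92.4, and at CRR2, a chloroplast RNA-processing gene in Arabidopsis, with 174.5 and 95.5. Calcineurin B, with 117 and 110 reads, GAI1, with 73 and 78, and CHUP1, which positions chloroplasts in Arabidopsis, with 75 and 77, had similar values on both sides. CTR1, a kinase that represses ethylene signalling in Arabidopsis, had 95 reads inside and 70 upstream, with −log10 q of 6.99 and 7 that were nearly equal. The inside event was also the higher at citrate synthase of the glyoxysome, with 158 and 122 reads, at 5'-aminoimidazole ribonucleotide synthetase, with 92 and 56, at actin-related protein 8, with 105.5 and 77.5, and at acid phosphatase, with 94.9 and 70.1. It was slightly higher at acetylornithine aminotransferase, with 102.6 and 94.4 reads, and at the acyl-CoA dehydrogenase gene ibr3, with 106 and 102. The promoter event was the higher at the Cgi67 serine protease gene, with 107 reads inside and 156 upstream, and at ATAN11, with 55 and 71. The circadian factor gene ZGT, with 87 and 93, the auxin-responsive protein gene VIT_12s0057g00460, with 66 and 73, and the ATP-binding protein gene VIT_18s0001g12520, with 64.3 and 68, differed less in signal. Their −log10 q inside and upstream was 3.55 and 15.33 at ZGT, 5.21 and 10.72 at VIT_12s0057g00460 and 5.04 and 5.54 at VIT_18s0001g12520.

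The 277 events were spread over all 19 chromosomes, with 3 on sequence that is not placed on any of them. Chromosome 18 had 27, chromosome 1 had 25, chromosome 5 had 22 and chromosome 8 had 21, and chromosomes 9 and 15 had 5 and 6. On chromosome 1, 21.0% of 119 listed events lay in the first 1 kb, against 8.20% of 61 on chromosome 9. The nearest other event of the deposited list was at a median of 13.3 kb, against 12 kb over all deposited events, and the most isolated events were those of apocytochrome b and a CCR4-NOT subunit 1 gene on chromosome 16, neighbours of each other 368 kb apart.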

How the data were processed

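HALO-NAC61 and the pIX-HALO control were each sequenced from 2 replicates. Per the submitters' processing notes and the methods, the authors trimmed reads with fastp 0.21.0, aligned them to PN40024 12X.v2 with Bowtie2 2.0, removed reads of low mapping quality and called events with GEM on the replicates together. The file deposited by the authors gives, per 201-bp event, the signal (reads assigned by GEM), its −log10 q-value for enrichment over the control, a score and the summit. The score served no comparison here. Read totals per library were not used, so depth enters only through the reads per event.

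From the list, summits were placed relative to the closest gene, with gene coordinates, annotations and k-mers from the supplementary table of events. The copy used here is in order of annotation and holds 1879 of the 8558 events, all of which matched a deposited event. Signal, −log10 q and summit were taken from the deposited list and not from that table. Gene models are the first grapevine annotation transposed to this assembly. Distance was measured from the gene start on its strand. Promoter events had the summit up to 1000 bp upstream, and neighbours lay within 500 bp. Shares have 95% Wilson intervals and medians 95% exact binomial intervals, computed with Python 3.11.15, numpy 2.4.6, scipy 1.17.1 and pandas 2.3.3, and tested on simulated data. No test between kinds of event was run, as the list has no replicate values and events are not replicates.

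The genes named are those of the 10 highest signals and the 5 highest −log10 q, those with 2 events in the first 1 kb, the highest and lowest of each list of annotations with values that show its spread, those also bound in the 1 kb promoter, and those at the limits of the rule. Other genes are named as examples chosen after their values were seen. The events, lists and k-mer families were chosen with earlier results of these data known. Alternatives covered the minimum −log10 q, the length of the stretch, the gene length, close neighbours and unplaced sequence. They also placed each event by the lower or the upper end of its interval in place of the summit. Exons and introns were not analysed here.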

Additional observations from a re-analysis of the deposited data

How the results depend on the processing

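No paired analysis was possible because the deposited list holds 1 value per event over both replicates, so no replicate could be left out either. Over 88 recomputed values, from 11 alternatives, 79 stayed within the counting interval of the reported value or, for the number of events, within 1.5 times of it, and 9 did not. Apart from the stretch of 500 bp, the number of events ran from 193 in genes of at least 2000 bp to 355 in a stretch of 1500 bp. Keeping only events with a −log10 q of at least 5 gave a median signal of 108 reads and a median −log10 q of 10.7, and keeping those of at least 3 gave 81.5% with at least 5. A stretch of 500 bp held 175 events, 25.1% of the events inside genes, and a stretch of 1500 bp held 51.0% of them, against 39.8% for 1 kb. The share was 32.9% in genes of at least 2000 bp. Another event lay within 250 bp of 1.44% of the events and within 1000 bp of 15.5%. These 9 shifts follow from how each alternative selects or counts events. The difference in median signal was 4 reads between the first 1 kb and deeper events (interval -4.70 to 14), and 10.9 between the first 1 kb and the promoter (2 to 22). Both differences stayed above 0 under the alternatives run, at 1 to 5.25 and at 9 to 12 reads, in sets that largely share their events. Each interval of a difference was formed from opposite ends of both median intervals. It covers counting error over events only and is no test between kinds of event. The interval of the difference to deeper events included 0 under each alternative, while that of the difference to the promoter stayed above 0. What limits the values is that 1 pooled list has no error between replicates, that only part of it has gene coordinates here, and that the gene model's start is not a measured transcription start.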

Other observations

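Events in the first 1 kb were also read in 7 further lists of annotations, all of them chosen after the values were seen. Amino acid synthesis and transport genes held 11 events in 10 genes, with a median of 113 reads against 92 over the 39 listed events of these genes. Highest were the transporter VIT_05s0062g01140 with 197 reads and the amino acid transport gene VIT_01s0026g02500 with 164. The small subunit of 3-isopropylmalate dehydratase, an enzyme of leucine synthesis, had 131 reads and a −log10 q of 20.2 at 659 bp. The adjacent transporter VIT_05s0062g01130 carried the same annotation as VIT_05s0062g01140 and had 104 reads, at 129 bp, close to the 166 bp of the other. Chaperone genes, whose products help proteins fold, held 4 events with a median of 116 reads, namely the chaperonin VIT_17s0000g03040 (202), the co-chaperone grpE (125), a GroEL-type chaperonin (108) and ClpB (83).

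Actin genes held 5 events of 19 listed, from 193 reads at a 21 kDa subunit of the ARP2/3 complex, which nucleates actin branches, to 66 at actin-related protein 2 of the same complex. Cell cycle genes held 7 events of 31 listed and none of the 31 lay in the 1 kb promoter, where 14.7% and 15.2% of all listed events lay. Cyclin H-1, a partner of the kinase that activates other cyclin-dependent kinases, had 181 reads at 145 bp, and the other 6 ran from 92 reads at CYCP4;1 to 69 at the inhibitor KIP-related protein 7. Ankyrin-repeat genes held 8 events, with a median of 81.8 reads and a range of 41 to 141. Of these, 7 had a k-mer, beside 47.3% of the 277 events, and 5 reached a −log10 q of at least 5, beside 73.3%. The 3 starch breakdown genes had low signals close to the start, with glucan water dikinase at 87 reads and 123 bp, beta-amylase 1 at 68 reads and 143 bp and glucan phosphorylase at 68 reads and 100 bp. Each had a k-mer, beside the same 47.3%, and 2 of the 3 reached a −log10 q of at least 5. Disease resistance genes had 4 of 33 listed events there, with 59 to 94 reads.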
